A study of Rattus norvegicus with 6 samples.

Results

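BC transcripts are the probes on the array whose identifier is a GenBank accession that begins with BC and digits, the prefix of the full-length cDNA clones sequenced by the Mammalian Gene Collection. The array held 861 of them among 24684 probes that are no control, each with 1 accession and 3 spots. Of these, 858 had a usable spot on all 6 arrays, and 731 were tested because the 3 arrays of the border zone, of sham or of both all read well above background. RNA came from the heart muscle of male Wistar rats. The left anterior descending coronary artery (LAD) of 3 rats was ligated, and the border zone of the infarct was taken 6 h later after the TTC and EB double stain (arrays M17, M24 and M25). Myocardium of 3 sham-operated rats was taken at the same time (arrays C4, C5 and C6). The border zone is tissue beside the dead core, a mixture of muscle, vessel, connective tissue and blood cells whose shares were not separated, so fewer cells of a type and less RNA per cell cannot be told apart.

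A full-length cDNA clone is a copy of a whole mRNA molecule, made by reverse transcription and sequenced from end to end. The prefix therefore tells how a transcript was read, not which gene it comes from or whether it codes for a protein, and it does not tie its members to 1 pathway or cell type. None of the accessions was paired with a gene name by the array's columns or by the RefSeq gene table used here (0 of 861 matched), so the members are called by accession and no role is given for them. Probe and cDNA sequences and their genome positions were not used here.

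The tissue label was borne out by its markers, and 2 sham arrays stood apart. All 7 measured cardiomyocyte markers, such as the cardiac myosin Myh6 and the troponin Tnni3, were well above background on all 6 arrays, with a log2 summed level between 8.86 and 9.41. The measured nervous-tissue markers (7 for central neurons, 3 for astrocytes, 5 for oligodendrocytes) all read above the other 4 arrays on C5 and on C6. Of the neuron markers, Syt1 and Slc17a7 were well above background on no array. The neurofilament gene Nefl was so on C5 and C6 only, at -0.35 and -0.018. Neutrophil markers had a log2 summed level of 3.03 to 3.16 in the border zone and of -1.45 to -0.83 in sham. Among BC transcripts carried, 85.3% were well above background on C4, 63.9% on C5 and 64.6% on C6, against 86.0% to 88.5% on the border-zone arrays. The 3 border-zone arrays and C4 came from 1 scan, and C5 and C6 from a scan of their own each. Differences of the main members are therefore given pooled and also against C4. The fit against C4 has scan as a block and takes its spread from the border-zone arrays alone, with no sham replicate. Levels are log2 signals relative to the 75th percentile of the array.

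More BC transcripts were lower than higher in the border zone. Of the 731 tested, 44 rose (6.02%) and 104 fell (14.2%) at an adjusted p below 0.05 in limma, and 583 were not called. Over all 17930 probes tested on the array, 9.01% rose and 10.3% fell. Called rises ranged from 0.44 to 2.75 on the log2 scale with a median of 0.90, and called falls from -0.38 to -3.60 with a median of -0.84. Called changes of at least 2-fold were 19 rises (2.6%, against 4.39% of all probes) and 36 falls (4.92%, against 4.13%). The 3 border-zone arrays lay above all 3 sham arrays for 125 BC transcripts (17.1%, against 20.9% of all probes) and below them for 221 (30.2%, against 22.8%). None of the 148 called members had overlapping groups. The median log2 fold change of the 731 was -0.14, and that of all probes tested -0.026. The number of calls rested on single arrays. Rises and falls numbered 20 and 41 without M17, 17 and 31 without M24, and 5 and 8 without M25. They numbered 114 and 210 without C4, 15 and 37 without C5, and 27 and 63 without C6. The calls over all probes swung in the same way. Without M25, 0.68% of BC transcripts rose and 1.09% fell, against 1.60% and 1.24% of all probes. Without C4 these shares were 15.6% and 28.7%, against 20.8% and 19.9%.

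**Figure D1:**
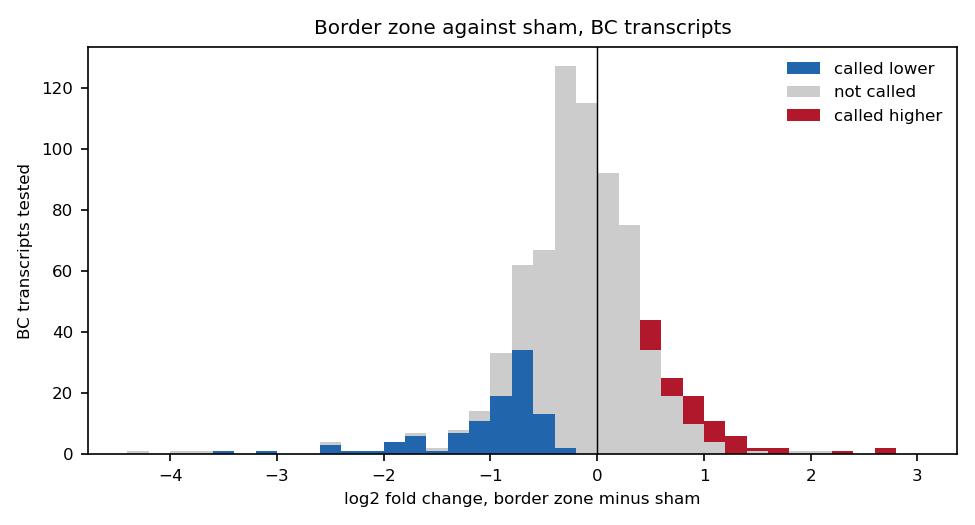
Histogram of the log2 fold change (border zone minus sham, bins of 0.2) of the 731 BC transcripts tested; bar height is the number of transcripts. Blue marks the 104 called lower, red the 44 called higher and grey the 583 not called; the grey bars beyond -2 are transcripts whose sham arrays differed widely.

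The scaling of the arrays set how the calls split. Scaling by the median, which shifts every probe alike, moved the median of all probes from -0.026 to 0.16 and that of BC transcripts to 0.051. It called 56 BC transcripts higher and 50 lower, so 47.2% of the called were lower instead of 70.3%. Among all probes that share went from 53.3% to 32.4%. The BC median minus that of all probes was -0.11 with the main setting, which a shift per array cannot alter. It was -0.15 with quantile normalization, -0.033 with scan as a block, -0.015 with normexp and 0.010 with dim probes kept in. Against C4, 41 rose (5.61%, against 8.43% of all probes) and 69 fell (9.44%, against 7.5%). Of these, 23 rises and 53 falls were also called in the pooled fit, and no member was called in opposite directions. All 44 pooled rises were positive and all 104 pooled falls negative against C4. Neither this nor the lack of opposite calls could have come out otherwise, because no member called in the pooled fit had overlapping groups. The fits have 4 arrays in common, so the second is not separate support.

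**Figure D2:**
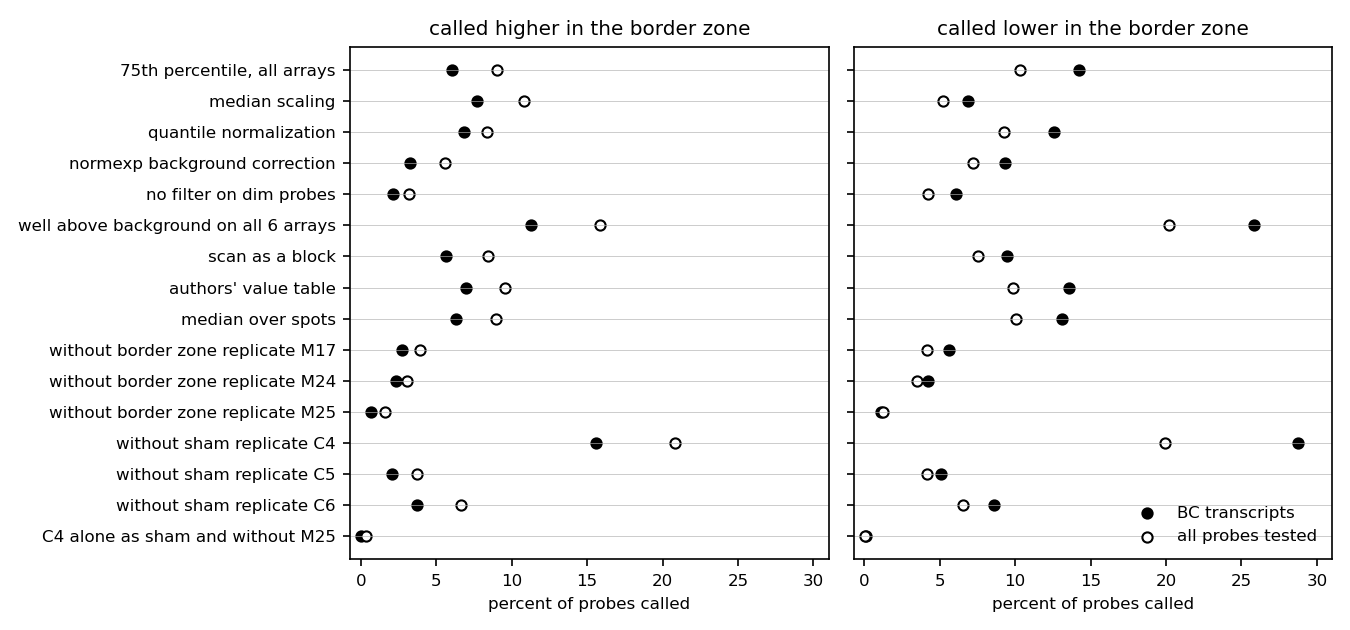
Percent of probes called higher (left) and lower (right) in the border zone for BC transcripts (filled) and all probes tested (open) under each setting except array quality weights. The BC share of rises lay left of the share of all probes in each setting shown, and the share of falls lay right of it except without M25, where 1.09% of BC transcripts and 1.24% of all probes fell.

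BC166504 had the clearest large rise. It stood at 4.47, 4.84 and 4.64 on M17, M24 and M25, and at 2.17 on C4 and 1.86 and 1.69 on C5 and C6. The border-zone arrays were close together and far above every sham array, a rise of 6.71-fold (log2 fold change 2.75 ± 0.17, n = 3 arrays per group, limma adjusted p = 0.00131, 2.48 against C4). BC100663 had the same size of change with a much wider sham group. Its border-zone levels were -1.61, -0.92 and -1.23, and its sham levels -4.31 on C4 and -4.87 and -2.83 on C5 and C6, where C5 was not well above background. The log2 fold change was 2.75 ± 0.53 (adjusted p = 0.0221, 3.06 against C4). The sham arrays spread over 2.03 log2 units, so this value is the less precise of the pair. BC063168 was at -1.36, -0.20 and -0.63 in the border zone and at -3.31 on C4 and -3.04 and -2.97 on C5 and C6. It rose 5.2-fold (2.38 ± 0.31, 2.58 against C4), with its sham arrays close together and M17 the lowest border-zone array.

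BC167060 had the smallest spread of the 10 in either group. Its levels were -1.14, -1.02 and -1.08 on the border-zone arrays and -2.84 on C4 and -2.76 and -2.62 on C5 and C6, a rise of 3.17-fold (1.66 ± 0.11, adjusted p = 0.00152, 1.76 against C4). BC166774 was at -0.54, -0.25 and -0.40 in the border zone and at -1.97 on C4 and -1.78 and -1.50 on C5 and C6 in sham (1.35 ± 0.16, 1.58 against C4). In both, C4 lay at the bottom of the sham group, so the difference from C4 was the larger one. The opposite held for BC089211 and BC079173, whose C4 level was nearest to the border zone. BC089211 was at -1.20, -0.57 and -0.89 in the border zone and at -1.74 on C4 and -3.10 and -2.91 on C5 and C6 in sham, with 1.70 ± 0.39 pooled and 0.85 against C4 (adjusted p = 0.112 there). BC079173 was at 0.48, 0.35 and 0.35 and, in sham, at -0.31 on C4 and -1.29 and -1.33 on C5 and C6, with 1.37 ± 0.29 pooled and 0.70 against C4. For both, C4 stood between the border zone and the other sham arrays.

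The other 3 of the 10 largest rises had sham levels near background. BC166863 (1.52 ± 0.40, 0.70 against C4), BC161858 (1.39 ± 0.28, 1.21) and BC058457 (1.39 ± 0.34, 0.70) read well above background on each border-zone array but, within sham, on C4 only. With normexp their log2 fold changes were 0.305, -0.115 and -0.296, so the last 2 turned negative. The calls of all 3 ended with normexp, as did that of BC100663, the largest rise (1.36, limma adjusted p = 0.0574). Of all 44 rises, 35 were well above background on all 6 arrays, and 6 turned negative with normexp. The calls of BC089211, BC166863, BC058457 and BC079173 ended without M17, M24, M25, C5 or C6, each left out in turn. BC100663 lost its call without M17, M24, M25 or C5, and BC161858 without M24, M25 or C5. BC063168 and BC166774 lost it without M25 alone, and BC166504 and BC167060 kept it in every such fit. Where a call ended, the adjusted p was between 0.0503 and 0.159. BC058457 also lost its call with quantile normalization and with the authors' value table, and BC166863 with that table. BC089211, BC161858 and BC058457 did not pass with scan as a block (adjusted p of 0.108 to 0.165).

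**Figure D3:**
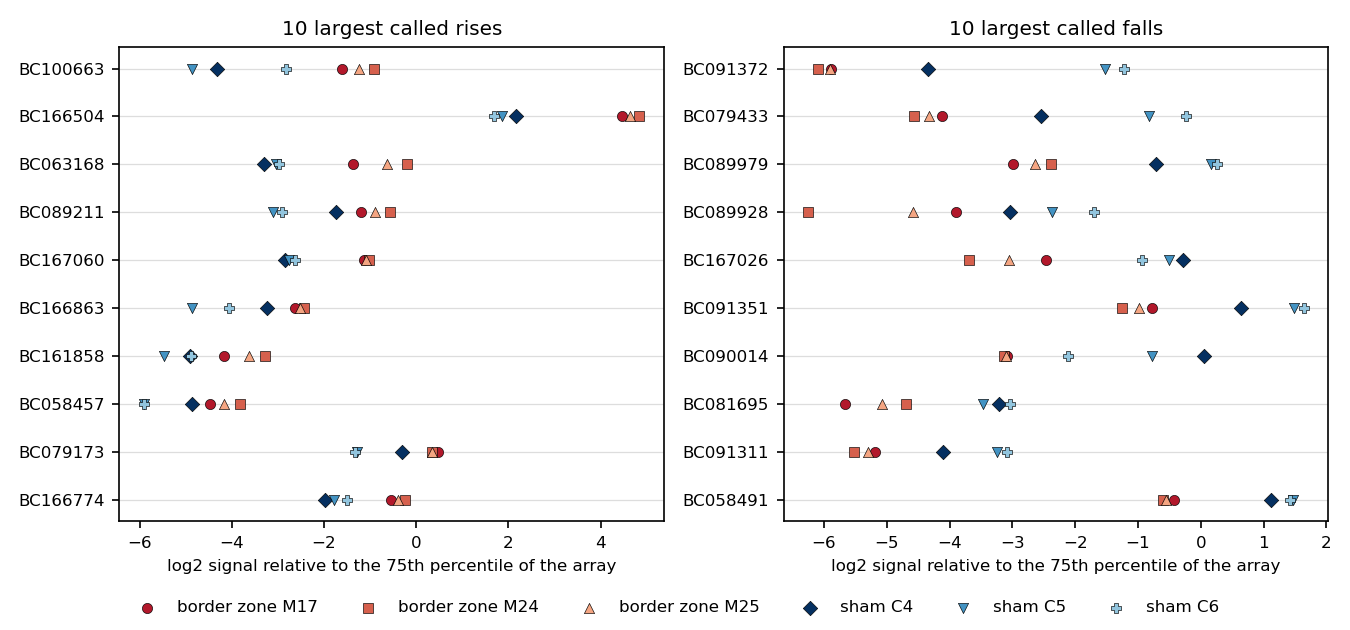
Level of the 10 BC transcripts with the largest called rise (left) and the 10 with the largest called fall (right) on each array, as log2 signal relative to the array's 75th percentile; each point is 1 array. Border-zone arrays (red shades) and sham arrays (blue shades) do not overlap in any of the 20, and C4 (dark diamond) often lies apart from C5 and C6.

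The 2 largest called falls were highest on C5 and C6. BC091372 was at -5.89, -6.10 and -5.91 in the border zone and at -4.35 on C4 and -1.52 and -1.22 on C5 and C6. Its fall of 12.1-fold pooled (-3.60 ± 0.83, adjusted p = 0.0342) was -1.62 against C4. BC079433 was at -4.13, -4.56 and -4.33 in the border zone and at -2.54 on C4 and -0.82 and -0.24 on C5 and C6 (-3.14 ± 0.58 pooled, -1.80 against C4). In both, C4 lay between those arrays and the border zone. The part of nervous tissue RNA in these falls was not tested. Of the 10, BC089928 differed most within the border zone. It was at -3.90, -6.25 and -4.59 on M17, M24 and M25 and at -3.03 on C4 and -2.37 and -1.70 on C5 and C6 (-2.54 ± 0.66, -1.88 against C4, adjusted p = 0.257 there), and M24 was the lowest array by a wide margin.

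The next falls, like those of BC091372 and BC079433, were seen against C4 as well as pooled. BC089979 was at -2.99, -2.38 and -2.64 in the border zone and at -0.72 on C4 and 0.17 and 0.27 on C5 and C6, a fall of 5.97-fold (-2.58 ± 0.31, adjusted p = 0.00582, -1.95 against C4). BC167026 was at -2.46, -3.69 and -3.05 against -0.29 on C4 and -0.51 and -0.94 on C5 and C6 (-2.49 ± 0.35, -2.78 against C4). In the first C4 was the lowest sham array, and in the second the highest. BC091351 was at -0.77, -1.26 and -0.98 in the border zone and at 0.64 on C4 and 1.48 and 1.64 on C5 and C6 (-2.26 ± 0.30, -1.65 against C4). BC058491 was at -0.43, -0.60 and -0.55 and, in sham, at 1.11 on C4 and 1.46 and 1.41 on C5 and C6, with -1.86 ± 0.14 and -1.64 against C4. The ranges of BC058491 were 0.18 log2 units in the border zone and 0.35 in sham.

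BC090014 was highest on C4. Its border-zone levels were -3.08, -3.13 and -3.10, nearly equal, while sham was at 0.06 on C4 and -0.78 and -2.12 on C5 and C6. The fall was -2.16 ± 0.53 pooled and -3.16 against C4. BC081695 (-1.91 ± 0.27, -1.94 against C4) and BC091311 (-1.86 ± 0.29, -1.23 against C4) completed the 10. Without M25 the calls of BC091372, BC079433, BC089928, BC167026, BC091351, BC090014, BC081695 and BC091311 ended, with adjusted p from 0.0506 to 0.140. BC091372 and BC089928 also lost theirs without M17, M24, C5 or C6, BC079433 and BC090014 without M17, M24 or C5, and BC091311 without M24. Where these ended, the adjusted p was between 0.0551 and 0.125. Only BC089979 and BC058491 kept their call whichever array was left out. With normexp the calls of BC091372 (-1.89, limma adjusted p = 0.0661) and BC091311 (-1.19, adjusted p = 0.0541) ended. BC090014 lost its call with median scaling, quantile normalization and the authors' value table, and BC089928 with quantile normalization and that table. With scan as a block, BC089928 and BC081695 did not pass (adjusted p of 0.257 and 0.0552).

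Calls that held with any 1 array left out numbered 13, of which 5 rose and 8 fell. The matching count over all probes is not given here, so this is not shown to be particular to BC transcripts. These fits share arrays with the pooled fit, so they are not separate support. Besides BC166504, BC167060, BC089979 and BC058491 the 13 included BC089936. Its levels were -2.45, -2.30 and -2.33 in the border zone and -0.46 on C4 and -0.55 and -0.53 on C5 and C6, a fall of 3.59-fold (-1.85 ± 0.11, adjusted p = 0.0011, -1.90 against C4). BC098815, named with the rest of the 13 after the values were seen, was at 3.09, 2.98 and 3.02 in the border zone and 4.46 on C4 and 4.55 and 4.50 on C5 and C6 (-1.48 ± 0.10, -1.43 against C4). BC086440 rose from -0.47 on C4 and -0.68 and -0.60 on C5 and C6 to 0.76, 0.64 and 0.66 in the border zone (1.27 ± 0.11, 1.16 against C4). In each of these 3 the groups were far apart and the sham arrays lay close together, with a range of 0.21 log2 units in BC086440 and 0.09 in the others.

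The same set held the rises of BC166462 (1.18 ± 0.12, 1.32 against C4) and BC086522 (1.12 ± 0.12, 1.06 against C4). It also held the falls of BC161881 (-1.65 ± 0.14, -1.82 against C4), BC100646 (-1.34 ± 0.15, -1.24) and BC100265 (-1.05 ± 0.12, -1.11). BC167069 is listed with reserve. Its border-zone levels of -6.29, -6.59 and -5.94 were well above background, but of the sham levels, -4.29 on C4 and -4.74 and -4.51 on C5 and C6, those on C5 and C6 were not. Its pooled value was -1.76 ± 0.21 and its value against C4 -1.98. BC086519, which rose 2.29-fold from 2.04 on C4 and 1.75 and 1.69 on C5 and C6 to 3.22, 2.84 and 3.01 (1.20 ± 0.16, 0.98 against C4), lost its call without M25 (adjusted p = 0.0597).

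Some BC transcripts differed among the sham arrays, in a share no larger than that of all probes. On both C5 and C6, 17 of the 731 (2.33%) were well above background and at least 2-fold higher than on C4, against 2.89% of all probes tested. In all 17 the 3 border-zone arrays lay below both C5 and C6. The rule picks members that are high on C5 and C6, and the matching count for the 519 probes that met it is not given here. Relative to C4 the border-zone mean was higher in 8 of them and lower in 9. Only BC091372, BC079433 and BC091258 (-1.68 ± 0.37, -0.88 against C4) were called lower pooled.

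The largest gaps between C5 and C6 and C4 came without a pooled call. BC089056 was at -6.67, -6.19 and -5.91 in the border zone and at -6.27 on C4 and -0.62 and -0.09 on C5 and C6. Its pooled value of -3.93 ± 1.64 became 0.01 against C4. BC086602 was at -6.44, -5.74 and -5.56 and, in sham, at -5.24 on C4 and 0.22 and -0.10 on C5 and C6 (-4.21 ± 1.47 pooled, -0.67 against C4). In both, C4 was near the border zone while C5 and C6 were far higher. BC091361 (-3.69 ± 1.17, -0.87 against C4) and BC100083 (-2.53 ± 0.82, -0.56 against C4) were likewise highest on C5 and C6, and of the 4 only BC091361 was called lower with scan as a block (adjusted p = 0.0267). These 4 were the members with a pooled fall of 4-fold or more that were not called (adjusted p between 0.0767 and 0.144).

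BC091317 stood apart from those, and it had the widest range of all members. It was at -3.97, -1.51 and -2.25 on M17, M24 and M25 and at -6.90 on C4 and 0.56 and 0.97 on C5 and C6. C4 was not well above background, the border zone lay in between and its 3 arrays differed by up to 2.46 log2 units. Pooled, the difference was -0.79 ± 2.19 (adjusted p = 0.816), and against C4 it was 4.32 with an adjusted p of 0.0684. The astrocyte marker Gfap had a like order, with -1.19, -2.23 and -1.63 in the border zone, -4.74 on C4 and 0.48 and 1.18 on C5 and C6. Within the border zone M24 was the lowest array for Gfap and the highest for BC091317. The astrocyte marker Slc1a2 lacked this order, with the border zone at -4.60, -4.80 and -4.90 and C4 at -4.46. Aqp4 was well above background on 2 arrays only and was highest on C5 and C6, at 0.23 and 0.05. Its levels of -7.75, -7.22 and -6.92 in the border zone and -6.80 on C4 lay near background, so no order among these arrays follows. A link of BC091317 to astrocytes was not tested. BC087722 was the only one of the 17 that was called higher with scan as a block, at 0.84 against C4 and 0.16 ± 0.30 pooled.

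**Figure D4:**
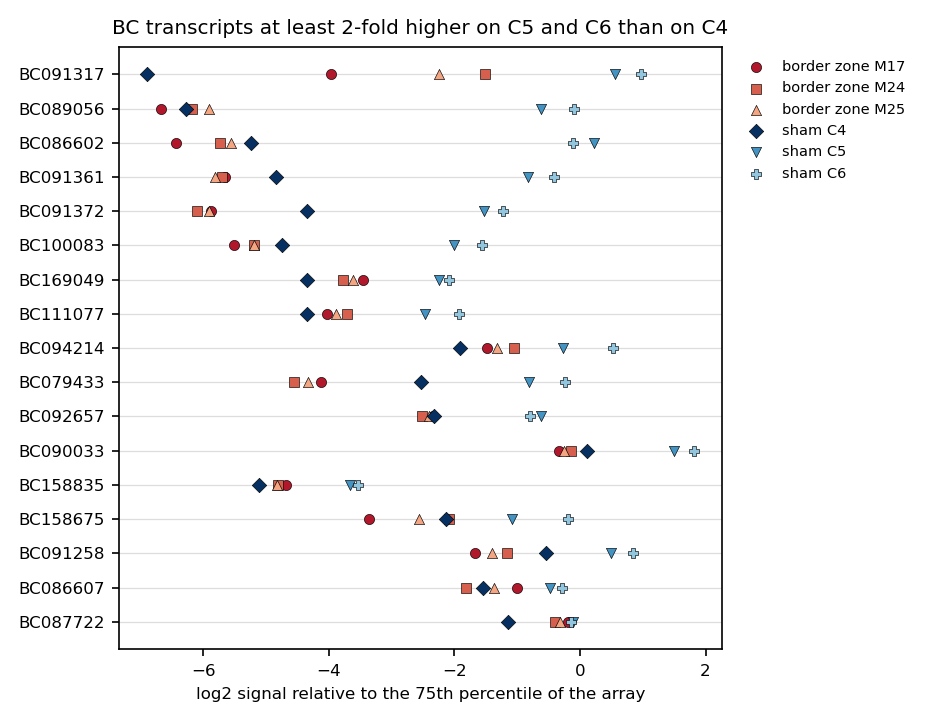
Level on each array of the 17 BC transcripts with an excess of at least 2-fold over C4 on C5 and on C6 and well above background on both, ordered by that excess. C5 and C6 (lighter blue) lie right of all border-zone arrays (red shades) in each row, while C4 (dark diamond) lies near or left of the border zone in most.

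**Figure D5:**
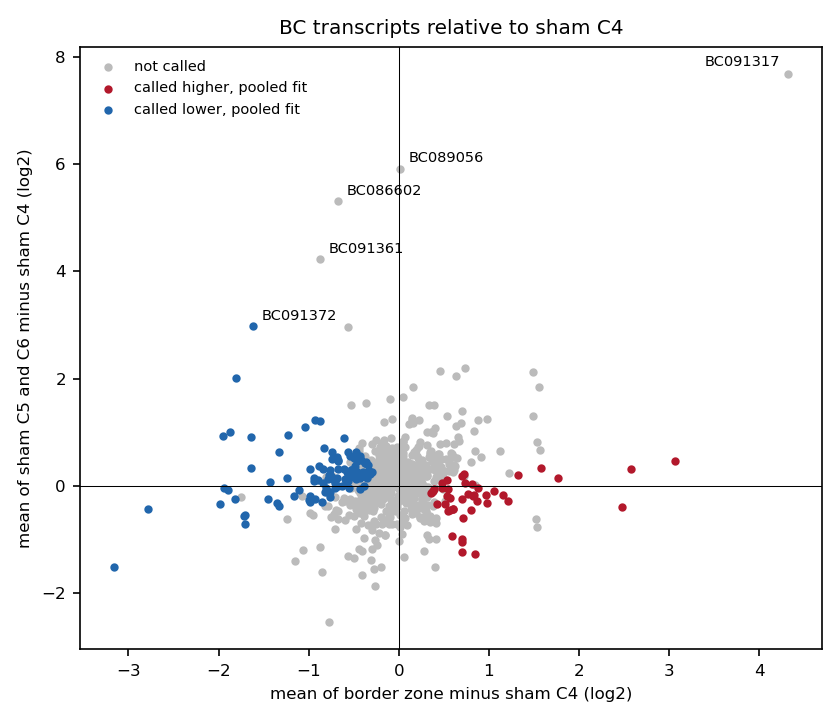
Each point is 1 of the 731 BC transcripts tested: the border-zone mean (horizontal) and the mean of C5 and C6 (vertical), both minus C4, in log2 units. Points called in the pooled fit lie left (blue, lower) or right (red, higher), and the 5 transcripts with the largest excess on C5 and C6 are labelled, 1 of them called.

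Within the border zone, BC transcripts were mostly alike on the 3 arrays. The median SD over the 731 was 0.11 log2 units in the border zone and 0.25 in sham. M17 and M24 differed over 2-fold for 22 members, 19 of them higher on M24, and M25 lay between M17 and M24 in all 22. The matching counts over all probes are not given here, so this is not shown to be particular to BC transcripts. The median absolute difference between M17 and M24 was 0.20 log2 units for BC transcripts and 0.21 for all probes. For BC transcripts M25 differed by 0.12 from M17 and by 0.11 from M24. Within sham this difference was 0.18 between C5 and C6, 0.29 between C4 and C5 and 0.37 between C4 and C6. The larger SD of sham thus goes with C4 against the other 2, and C5 and C6 were as alike as M17 and M24. The labels give M25 a sample code of its own, and a mixture was not tested. Without M25, 5 rises (0.68%) and 8 falls (1.09%) were called, against 1.60% and 1.24% of all probes. Red-cell transcripts differed on the same arrays. The erythroid enzyme gene Alas2 was at 0.58, -4.35 and -0.45 on M17, M24 and M25 and at 1.36 to 1.46 in sham. The globin gene Hbb was at 5.90, 2.68 and 5.47 on M17, M24 and M25. The log2 summed level of the neutrophil markers was 3.16, 3.03 and 3.03 on M17, M24 and M25, and -1.45 to -0.83 in sham. A difference in blood content among the border-zone arrays was not tested. The part of red-cell RNA in the 22 was not tested. Of the 22, BC063168, BC167026 and BC089928 were called between the groups.

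The widest difference between M17 and M24 was in BC158825, named after its values were seen. It was at -2.31, 0.93 and 0.12 in the border zone and at 0.35 on C4 and -0.56 and -3.81 on C5 and C6, where C6 was not well above background. Its spread was large in both groups, and no difference between them was called (0.92 ± 1.31 pooled, -0.77 against C4). BC088254 and BC107452 were also named after their values were seen. BC088254 was at -4.90, -2.27 and -3.03 in the border zone and at -4.94 on C4 and -6.19 and -5.22 on C5 and C6. BC107452 was at -5.06, -2.28 and -3.04 and, in sham, -4.98 on C4 and -6.10 and -5.12 on C5 and C6. In both the M17 level was close to C4 and the other border-zone arrays were higher, and neither was called (2.05 ± 0.72 and 1.94 ± 0.75 pooled, 1.54 and 1.52 against C4, adjusted p = 0.0981 and 0.121 pooled). C5 and C6 were not well above background for either, and with normexp the pooled values were 0.24 and 0.15.

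The brightest members changed little. The 5 with the highest mean level were BC161988, BC166798, BC158811, BC166770 and BC158568, and each was highest on C6. BC161988 was at 7.01, 6.90 and 6.99 in the border zone and at 7.17 on C4 and 7.18 and 7.66 on C5 and C6 (-0.37 ± 0.17, -0.21 against C4, adjusted p = 0.165). The pooled values of the other 4 lay between -0.39 ± 0.21 (BC166770) and -0.29 ± 0.20 (BC158568), with -0.13 to -0.07 against C4, and none of the 5 was called. Of the 7 cardiomyocyte markers, Myh6, Tnnt2, Tnni3 and Ryr2 were highest on C6, and Actc1, Myl2 and Pln on M17. The steadiest of the 50 brightest were BC166930 at 4.45, 4.15 and 4.22 and 4.40 on C4 and 4.13 and 4.29 on C5 and C6 (difference 0.0022 ± 0.14, -0.12 against C4), BC099211 (-0.01 ± 0.12, 0.12) and BC157820 (-0.02 ± 0.13, -0.13). Brightness differs between probes for reasons other than abundance, so no order of transcript amounts follows.

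Calls were rarer among dim members, as they were among dim probes in general. With all tested probes cut into 3 equal classes by mean level, 2.88% of the 208 BC transcripts in the dimmest rose and 8.17% fell, against 3.88% and 4.57% of all probes there. In the middle, 7.75% of 284 rose and 16.5% fell, against 10.3% and 15.3%. In the brightest, 6.69% of 239 rose and 16.7% fell, against 768 (12.8%) and 660 of all 5977 probes there. Among probes well above background on all 6 arrays, 6.59% of 531 BC transcripts rose and 17.7% fell, against 10.6% and 14.2% of 11936. RefSeq mRNA probes, the largest class on the array, had 9.77% of 12085 higher and 12.0% lower.

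By accession number, the lower-numbered members had the larger share of falls. Of 370 tested members numbered below BC100000, 5.14% rose and 17.3% fell, and the middle log2 fold change was -0.17 pooled and -0.093 against C4. Of 274 numbered from BC150000 on, 6.93% rose and 9.85% fell, with a median of -0.096 (-0.056 against C4). The 87 between had 6.90% higher and 14.9% lower. The median level was -0.88 in the first range and -1.75 in the last, and the difference in falls was not tested.

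The remaining members have no result. For 3 of them a spot was lacking on at least 1 array. Of the 127 others, 79 were not well above background on any array, 22 were so on 2 arrays of a group at most, and 26 on 1 array of a group at most. Among the 731 tested, 531 were well above background on all 6 arrays. Another 199 were so on all border-zone arrays but not on all sham arrays, 159 of them failing on C5 and C6 together and on no other array. In the opposite direction only BC089056 entered, through sham alone.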

How the data were processed

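RNA was measured on 6 single-colour Agilent arrays, 1 per rat, and nothing used here says that the RNA was handled apart, so p-values measure the spread between these arrays. The deposited intensity is the processed signal of Agilent Feature Extraction 11.0.1.1, per the file headers. Other deposited columns hold the flags for control, outlier and well-above-background spots. The authors' value table, in log2 units with column medians of 5.53 to 5.54, served as an alternative; its normalization is not given in the sources used here, and 24415 of its 24529 rows matched a probe carried.

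Control and outlier spots were left out, spots of a probe averaged as log2 values, and each array's 75th percentile subtracted. A probe counted as well above background where most of its usable spots were. Probes so on all 3 arrays of a group were fitted together in limma 3.58.1 (R 4.3.3), two-sided, with Benjamini-Hochberg adjustment at 0.05. The fit was tested on simulated data. The number of arrays limits the precision. The fit with scan as a block had 2 residual degrees of freedom.

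Members, lists and alternatives were chosen with earlier results of these data known. Named by rule were the 10 largest called rises and falls, the 6 largest of each called in both fits with sham within 2-fold, the 5 brightest, the 5 with the largest excess on C5 and C6, and the 3 steadiest of the 50 brightest. Alternatives were other scalings, background correction, filters, array weights, spot medians, a minimum fold of 2 and each array left out.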

Additional observations from a re-analysis of the deposited data

How the results depend on the processing

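The main result was 44 BC transcripts higher and 104 lower, with a median log2 fold change of -0.14. Median scaling gave 56 and 50, and the median turned to 0.051. Normexp was chosen after seeing the data and run on the median spot signal with an offset of 50. It gave 24 and 68 with a median of -0.36, where that of all probes tested was -0.35 (-0.026 with the main setting). BC161858 turned to -0.115 and BC058457 to -0.296. Normexp also ended the calls of BC100663 and BC091372, the largest called rise and the largest called fall. With dim probes kept in, 18 and 52 of 858 were called. Scan as a block gave 41 and 69, and a minimum fold of 2 gave 19 and 36. Array quality weights, whose estimation did not reach its convergence tolerance, gave 204 and 303. These were 27.9% and 41.5% of BC transcripts, against 36.2% and 31.1% of all probes. With 1 array left out, rises numbered 5 (without M25) to 114 (without C4) and falls 8 (without M25) to 210 (without C4). Over all probes, too, the shares were lowest without M25 (1.60% and 1.24%) and highest without C4 (20.8% and 19.9%). Without C4 the groups had no scan in common, so group and scan cannot be told apart there. C4 alone as sham and without M25, also chosen after seeing the data, gave 0 and 1 in limma, with 43 and 80 at an unadjusted p below 0.05. Quantile normalization (50 and 92), the authors' value table (51 and 99), medians over spots (46 and 96) and the filter on all 6 arrays (60 and 137 of 531) kept both counts within 1.5 times. The causes were not tested, except that dim probes kept in and the stricter fold change what is tested or called by construction. No paired analysis was possible because the groups share no replicate numbers. Signal over background limits the members that were dim on C5 and C6, for which rises have no measured sham level there.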
